A study of Sus scrofa with 22 samples.

Results

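The genes described here encode the structural proteins of the extracellular matrix and the basement membrane in porcine endometrium. They were selected by symbol in the annotation of the pig genome (Sscrofa11.1), namely chains of collagens and laminins, both nidogens (NID1, NID2), perlecan (HSPG2), agrin (AGRN), fibrillins, elastin and fibulins, the proteoglycans DCN, LUM, BGN and VCAN, SPARC, SPARCL1, POSTN, and the crosslinking enzymes LOX, LOXL1 and LOXL2. Of the 12401 genes listed for at least 1 cell type, 55 are described, with 52 in luminal epithelium (LE), 52 in glandular epithelium (GE), 51 in stroma (S) and 48 in all 3 cell types. A further 19 of 75 annotated genes with such symbols, LOXL1 among them, were not listed for any cell type. Cells were collected by laser capture microdissection (LCM), in which areas are cut out of a stained cryosection under the microscope. The donors were prepuberal gilts, crosses of German Landrace and Piétrain, in which ovulation had been synchronised with PMSG and hCG. Gilts of the pregnant group (01, 03, 05 and 14) had been inseminated with semen, and those of the cyclic control group (02, 04, 06 and 13) with semen supernatant of the same boar. All were sampled on Day 12. There was 1 library per gilt for LE and GE (4 pregnant and 4 control), and 1 library from each of 3 pregnant (01, 05, 14) and 3 control gilts (02, 04, 13) for S. The replicates were different gilts, libraries with the same number came from the same gilt, and values per gilt are given below in the order of these numbers.

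The epithelia of the uterus rest on a basement membrane, a sheet built from laminin heterotrimers (an alpha, a beta and a gamma chain), type IV collagen, nidogen and perlecan. A laminin that contains the products of LAMA3 and LAMB3 binds the hemidesmosomes of epithelial cells, which contain the transmembrane collagen XVII (COL17A1), and type VII collagen (COL7A1) forms fibrils that anchor it to the tissue below. The interstitial matrix of the stroma consists mainly of fibrils of type I, III and V collagen, made by fibroblasts and spaced by decorin, lumican and biglycan. In the pig, the conceptus elongates around the time of sampling and attaches to the LE without invading it.

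The labels were first compared with marker genes of the cell types. In libraries labelled S, the summed level of 10 epithelial markers was 1242 to 4387 CPM (counts scaled to the normalised library total), which overlapped the 3102 to 4628 CPM of LE. The summed level of the listed fibroblast markers (7 of 11 in S, 10 of 11 in LE and GE) was 467 to 763 CPM in 5 of the 6 S libraries, 3092 CPM in the S library of gilt 01, and 1028 to 2236 CPM in LE. HAND2, TWIST1 and TWIST2, transcription factors of mesenchymal cells, were not listed for S. In S against LE, PDGFRB, SNAI2 and VIM were lower in S and no fibroblast marker was higher. Of the epithelial markers, ELF3, KRT19 and KRT7 passed in S against LE, 1 higher and 2 lower in S. Of 5 lymphatic endothelial markers, 4 were listed for S, 1 for LE and none for GE, with summed levels of 5.09 to 238 CPM in S and 3.83 to 19 CPM in LE. The epithelial and fibroblast markers did not set S apart from LE as stroma, and S is used below only as the label of these libraries. Libraries were also unequal within a group. In the pregnant S library of gilt 01, 47 of 51 matrix genes had their highest level of the 3 pregnant libraries (median ratio to the next library 4.17), together with the highest sums of fibroblast and blood endothelial markers. In the control GE library of gilt 02, 47 of 52 matrix genes were highest (median ratio 2.76), and the sum of smooth muscle markers was 10803 CPM, against 74.6 to 662 CPM in the other 3. Its sums of fibroblast and blood endothelial markers (3503 and 1452 CPM) were also the highest of control GE. Conversely, 45 of 52 matrix genes were lowest in the control GE library of gilt 13. In pregnant LE, 41 of 52 were highest in gilt 01, which also had the highest sum of smooth muscle markers (6060 CPM against 502 to 731 CPM). Fibroblast and blood endothelial markers had their highest sums in that library as well (2236 and 1811 CPM). The part of other cells in these levels was not tested, and in cells collected in bulk fewer cells of a type and less RNA per cell cannot be told apart.

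**Figure D1:**
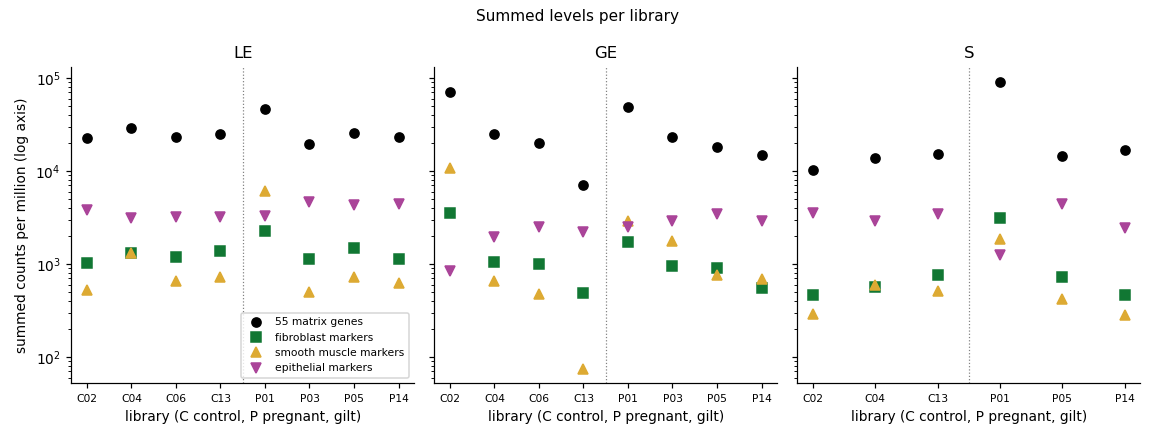
Summed levels per library (CPM, log axis) of the 55 matrix genes and of fibroblast, smooth muscle and epithelial markers, with control (C) libraries left and pregnant (P) libraries right of the dotted line and gilt numbers on the x axis. The matrix genes are highest in the pregnant S library of gilt 01 and the control GE library of gilt 02, in which the epithelial markers are lowest for their cell type.

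Total counts on listed genes were between 893912 (pregnant LE, gilt 01) and 4020796 per library. The matrix genes took 1.77 to 4.32% of the counts in LE, 0.697 to 7.05% in GE and 1.07 to 8.83% in S. Relative to exon length, the same 3 genes led in every cell type, COL3A1, COL1A1 and COL1A2, which encode the chains of type III and type I collagen. Their mean levels per kb of exon were 941, 648 and 528 CPM in LE, 1366, 866 and 697 CPM in GE and 1274, 856 and 628 CPM in S. SPARC, DCN and LUM held the next places in all 3 cell types, followed by COL4A1. The levels of COL3A1 were 2228 to 7055 CPM in LE and 1453 to 17172 CPM in GE, and those of COL1A1 2187 to 8229 and 774 to 12655 CPM, so that these neighbours differed by less than the spread between gilts. The lowest levels per kb were those of COL27A1 in LE (1.15 CPM), COL11A1 in GE (1.37 CPM) and LAMA1 in S (0.915 CPM).

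Pregnant and control gilts were compared within each cell type. The threshold was a false discovery rate (FDR) below 0.01 in LE, whereas for GE and S it was a raw p below 0.0021. An FDR printed beside a pregnancy comparison in GE or S therefore did not decide the call. In LE, 4 of 52 matrix genes passed, against 10% of all 11415 genes. LAMB3, COL17A1 and FBN1 were higher (6.33% of all genes) and AGRN was lower (3.71%) in pregnant gilts. With an FDR below 0.05 in LE, 13 matrix genes and 22.4% of all genes passed. In GE, 3 of 52 matrix genes passed, against 0.694% of all 11676 genes. LAMB3 and COL17A1 were higher (0.574% of all genes) and LAMA3 was lower (0.12%), but none of the 52 had an FDR below 0.05 in the edgeR test (0.0171% of all genes). A raw p below 0.05 was found for 4 of 52 matrix genes in GE (8.09% of all genes) and 19 of 51 in S (12.5%). With the thresholds of the cell types, DESeq2 called 3 in GE (2.06% of all genes) and 5 in S (4.44%). In S, 1 of 51 passed, LAMB3, which was higher. Of all 11532 genes in S, 1.47% passed (0.425% higher and 1.05% lower), and 0.251% but no matrix gene had an FDR below 0.05.

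Levels of all pregnant libraries were above those of all control libraries for 9 of 52 matrix genes in LE (14.1% of all genes), 2 of 52 in GE (2.81%) and 14 of 51 in S (7.26%). They were below for 3 in LE (12.6%), 1 in GE (2.16%) and 1 in S (10.1%). LAMB3 and COL17A1 were separated upwards in all 3 cell types, as 0.761% of the 10643 genes listed for all 3, and LAMA3 downwards, as 0.282%. The median log2 fold change (FC) of the matrix genes was 0.39 in LE, -0.22 in GE and 1.44 in S, beside 0.01, -0.02 and 0.08 for all genes. Without gilt 01 the median was -0.07 in LE and 0.09 in S. In GE it was between -0.76 (without gilt 01) and 0.76 (without gilt 02) when 1 gilt was left out. In S, other cell type markers moved with the matrix genes. The log2 FC was positive for all 4 listed lymphatic endothelial markers (median 5.79), of which LYVE1 and MMRN1 passed, and their summed level was 238, 89 and 27.3 CPM in the pregnant and 5.09 to 7.7 CPM in the control group. It was also positive for all 9 blood endothelial and all 7 fibroblast markers listed, none of which passed. The sums of both lists stood above the control range in gilt 01 only. For blood endothelial markers they were 2200, 492 and 308 CPM in the pregnant and 317 to 533 CPM in the control group. For fibroblast markers they were 3092, 728 and 468 CPM against 467 to 763 CPM. Of 6 leukocyte markers in S, 5 had a positive log2 FC and none passed. Their sums were 113 to 251 CPM in pregnant and 90.8 to 95.5 CPM in control S. In LE, all 5 listed leukocyte markers had a negative log2 FC, with sums of 76.3 to 95.2 and 101 to 218 CPM. Of 9 blood endothelial markers in LE, 8 were positive and none passed. Of 10 epithelial markers, 3 passed as higher and 3 as lower in pregnant LE. In S, 7 of these 10 were negative, and KRT7 passed. The part of such cells in the levels of matrix genes was not tested.

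**Figure D2:**
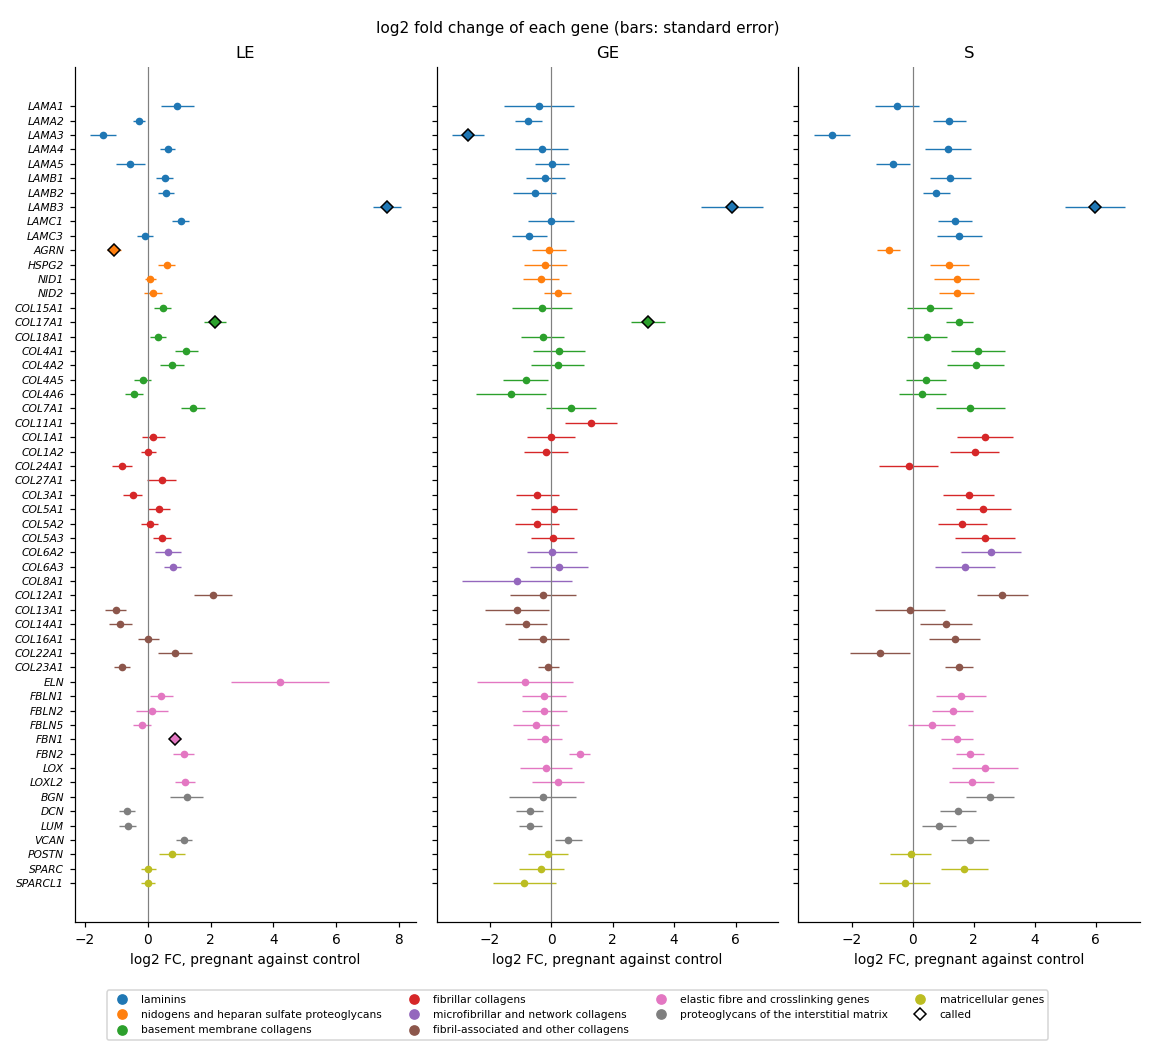
log2 FC (x axis) of each matrix gene in pregnant against control gilts in LE, GE and S, coloured by group, with standard errors as bars and genes past the threshold of the cell type as diamonds. LAMB3 lies farthest to the right and LAMA3 farthest to the left in all 3 cell types, and in S 42 of 51 genes lie right of 0.

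LAMB3, which encodes the beta chain of the hemidesmosome laminin, showed the largest log2 FC of the matrix genes. In LE, its level was 1.11, 1.61, 0.349 and 0.926 CPM in the control, with at most 6 counts in a library, and 256, 206, 279 and 103 CPM in the pregnant group (log2 FC 7.61, SE 0.45, edgeR FDR 1.3e-05). This increase was kept when any gilt was left out. In GE, LAMB3 was at 0, 1.47, 0.562 and 0 CPM in the control and at 61.1, 16.7, 28.5 and 7 CPM in the pregnant group. No control GE library had more than 3 counts. Taking 3 counts per library as the floor, the mean of the pregnant group was at least 26.2-fold higher (edgeR p 0.000248, FDR 0.138). Without gilt 01 it was at least 16.1-fold higher. In S, the control libraries were at 1.16, 0.599 and 1.09 CPM and the pregnant libraries at 22.2, 135 and 22.1 CPM. By the same floor the pregnant mean was at least 57.2-fold higher (edgeR p 0.000398, FDR 0.082), and at least 21.2-fold higher without gilt 05. The call in S was narrowly lost without gilt 02, 04 or 13 (edgeR p 0.00254 to 0.00282, FDR 0.205 to 0.41). It was kept without gilt 01 (edgeR p 0.00032, FDR 0.0787).

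LAMA3, encoding the alpha chain of the same laminin, had the opposite direction. In GE it was at 158, 758, 296 and 464 CPM in the control and at 46, 64.2, 37 and 106 CPM in the pregnant group, with no overlap (log2 FC -2.71, SE 0.51, edgeR FDR 0.189). This call (edgeR p 0.000516) was narrowly lost without gilt 01 (edgeR p 0.0026, FDR 0.469) or gilt 03 (edgeR p 0.00243, FDR 0.427). In LE, the control libraries had 63.9, 51.3, 70.1 and 76.1 CPM and the pregnant libraries 15.5, 7.34, 30.8 and 39.7 CPM, which did not reach the threshold (log2 FC -1.43, SE 0.41, edgeR FDR 0.0297). In S, the levels were 173, 422 and 85.3 CPM in the control and 41.4, 24.5 and 39.4 CPM in the pregnant group. LAMA3 lay just outside the threshold there (log2 FC -2.65, SE 0.59, edgeR FDR 0.142), and passed it without gilt 13 (edgeR p 0.000557).

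COL17A1 was increased in LE, from 44.2, 53, 63.4 and 34.7 CPM in the control to 217, 96.5, 208 and 347 CPM in the pregnant group (log2 FC 2.15, SE 0.35, edgeR FDR 0.00221). Without gilt 02 the FDR was 0.0104, just outside the threshold. In GE it increased from 5.61, 7.36, 17.4 and 4.6 CPM to 122, 69.5, 92.5 and 29.1 CPM (log2 FC 3.14, SE 0.55, edgeR p 0.000293, FDR 0.143). This call was kept when any gilt was left out (edgeR p at most 0.00159). In S, the control libraries were at 27.7, 37.7 and 27.2 CPM and the pregnant libraries at 44.5, 147 and 68.1 CPM, without overlap but outside the threshold (log2 FC 1.52, SE 0.44, edgeR FDR 0.241). The S library of pregnant gilt 05 had the highest level of LAMB3 and COL17A1 of all S libraries. That library also had the highest sum of epithelial markers in S (4387 CPM). The sums were 1242 and 2461 CPM in pregnant gilts 01 and 14, and 2888 to 3511 CPM in control S. The part of epithelial cells in these levels was not tested.

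Relative to exon length, the group mean of LAMA3 was above that of LAMB3 in the control and below it in the pregnant group of LE and S. LAMA3 was at 5.48 CPM per kb and LAMB3 at 0.25 CPM per kb in control LE, and at 1.96 and 52.8 CPM per kb in pregnant LE. In GE, the levels per kb were 35.2 (LAMA3) and 0.127 (LAMB3) CPM in the control and 5.31 and 7.09 CPM in the pregnant group. The order in pregnant GE rested on gilt 01, since without it the means were 5.79 (LAMA3) and 4.35 (LAMB3) CPM per kb, and LAMA3 was above LAMB3 in gilts 03 and 14. In S, LAMA3 and LAMB3 were at 19 and 0.237 CPM per kb in the control and 2.94 and 15 CPM per kb in the pregnant group.

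**Figure D3:**
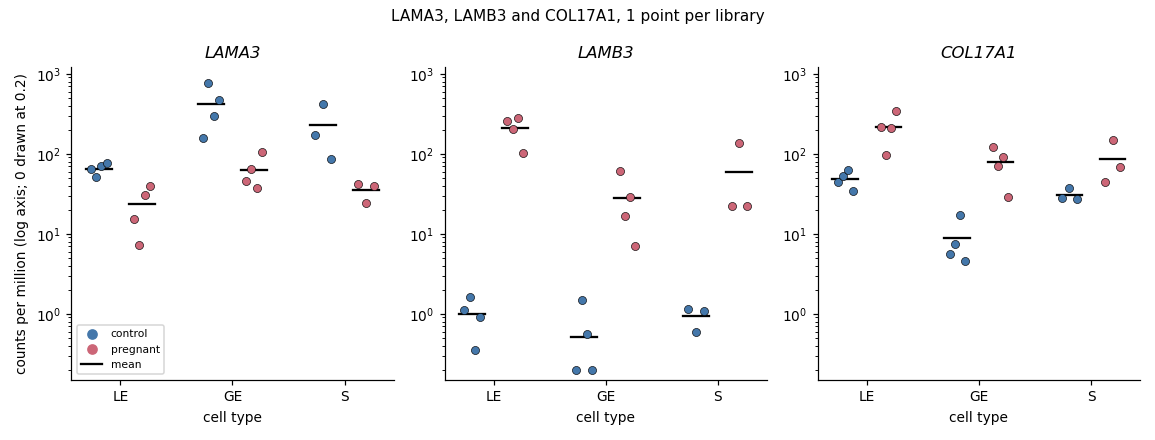
Levels (CPM, log axis) of LAMA3, LAMB3 and COL17A1 in each library of LE, GE and S, with control gilts in blue, pregnant gilts in red and the group mean as a line. The control and pregnant points of LAMA3, LAMB3 and COL17A1 do not overlap in any cell type.

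LAMB3 lies at chr9:133298009-133351162, LAMA3 at chr6:108548818-108805700 and COL17A1 at chr14:114959404-115007734. The 300 bases before the annotated start of these 3 genes (for LAMA3, of its longest transcript) are shown because the genes differed in direction (Sscrofa11.1, RefSeq, 5′ to 3′ on the strand of the gene). Both strands were searched for the AP-1 element TGANTCA, the TATA box TATAAA, the GC box GGGCGG and the CCAAT box CCAAT, and matches are in capitals.
LAMB3, chr9:133297709-133298008, plus strand: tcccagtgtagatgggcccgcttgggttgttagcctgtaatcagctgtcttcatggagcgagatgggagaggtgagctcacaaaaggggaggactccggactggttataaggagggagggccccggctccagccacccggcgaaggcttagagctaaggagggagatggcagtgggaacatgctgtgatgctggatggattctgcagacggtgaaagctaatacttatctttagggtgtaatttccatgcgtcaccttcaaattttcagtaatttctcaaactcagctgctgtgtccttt
COL17A1, chr14:115007735-115008034, minus strand: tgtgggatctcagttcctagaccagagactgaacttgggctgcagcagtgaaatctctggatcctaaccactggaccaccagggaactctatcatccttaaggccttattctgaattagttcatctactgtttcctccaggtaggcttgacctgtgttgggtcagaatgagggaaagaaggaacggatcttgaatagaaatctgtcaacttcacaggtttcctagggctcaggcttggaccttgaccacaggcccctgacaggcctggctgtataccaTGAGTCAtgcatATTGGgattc
LAMA3, chr6:108548518-108548817, plus strand: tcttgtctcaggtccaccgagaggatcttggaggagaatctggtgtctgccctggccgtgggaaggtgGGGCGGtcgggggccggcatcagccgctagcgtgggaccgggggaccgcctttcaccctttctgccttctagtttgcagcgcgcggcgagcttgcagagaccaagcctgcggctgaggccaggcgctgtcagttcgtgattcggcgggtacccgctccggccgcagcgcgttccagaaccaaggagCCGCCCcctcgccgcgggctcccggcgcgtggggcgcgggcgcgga

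The AP-1 element, present in 6.57% of 20652 regions of this length before annotated genes, was found once before COL17A1 and not in the other 2 regions. A CCAAT box (35.9% of all regions) was found on the opposite strand before COL17A1. The region of LAMA3, with a GC content of 70%, held 2 GC boxes (at least 1 in 46.3% of all regions). None of the 3 regions held a TATA box (12.6%). The region of LAMB3 held none of the 4 motifs. It overlaps exons of LOC102158978 on the opposite strand, which was not listed for any cell type.

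Of the other 8 laminin chains, none passed the threshold of a cell type in the edgeR test. DESeq2 called LAMC1 in LE (19.1% of all genes), as did the likelihood ratio test (18.2%). LAMC1, the gamma chain of most laminins, was at 249, 301, 243 and 259.7 CPM in control LE and at 885, 535, 436 and 337 CPM in pregnant LE (log2 FC 1.04, SE 0.27, edgeR FDR 0.0203), without overlap. LAMB1, a beta chain, was at 298 to 356 CPM in control and 319 to 781 CPM in pregnant LE (log2 FC 0.54, SE 0.26, edgeR FDR 0.172; log2 FC 0.20 without gilt 01). LAMA5, an alpha chain of epithelia and vessels, was at 158 to 263 and 46 to 295 CPM (log2 FC -0.56, SE 0.46, edgeR FDR 0.424; log2 FC -1.25 without gilt 01). In S, the log2 FC was 1.22 for LAMB1 and 1.40 for LAMC1 (edgeR FDR 0.514 and 0.368), and -0.06 and 0.41 without gilt 01, which had the highest level of both. Of the exon bases of LAMB1, 9.0% overlap LOC100623096, which was not listed for any cell type.

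AGRN, the heparan sulfate proteoglycan agrin, was decreased in LE. Its level was 179, 173, 133 and 121 CPM in the control and 99.96, 64, 56.4 and 70.1 CPM in the pregnant group (log2 FC -1.08, SE 0.22, edgeR FDR 0.00591), so that all pregnant libraries were below all control libraries. This call was lost without gilt 02, 03, 04, 05, 06 or 13 (FDR 0.0109 to 0.0272). Perlecan (HSPG2), the major heparan sulfate proteoglycan of basement membranes, was at 1206, 1101, 1040 and 936 CPM in control and 2705, 1298, 1321 and 1222 CPM in pregnant LE, without overlap (log2 FC 0.60, SE 0.26, edgeR FDR 0.132), and its log2 FC was 0.26 without gilt 01. NID1, the linker of laminin and type IV collagen, was at 197 to 269.9 CPM in control and 207 to 296 CPM in pregnant LE (log2 FC 0.08, SE 0.17).

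Among the type IV collagens, COL4A1 was at 1151, 968, 747 and 757 CPM in control LE and at 4088, 1880, 1492 and 1104 CPM in pregnant LE (log2 FC 1.23, SE 0.37, edgeR FDR 0.0382), and its log2 FC was 0.72 without gilt 01. COL4A2 was at 509, 493, 275 and 296 CPM in control LE and at 1285, 579.7, 468 and 377 CPM in pregnant LE (log2 FC 0.77, SE 0.38, edgeR FDR 0.176; log2 FC 0.27 without gilt 01). Their products assemble into one triple helix. Neither passed in the edgeR test, but DESeq2 and the likelihood ratio test called COL4A1 in LE. In S, COL4A1 was at 415, 413 and 393 CPM in the control and at 4129, 644 and 351 CPM in the pregnant group, and the log2 FC of 2.13 was 0.28 without gilt 01. The annotated span of COL4A2 begins at chr11:76996885, inside COL4A1 (chr11:76858332-76997409). A further annotated start of COL4A2 lies head to head with that of COL4A1. The 133 bases between these starts are shown because transcripts from them point away from the interval (Sscrofa11.1, capitals as above).
COL4A1 and COL4A2, chr11:76997410-76997542, plus strand: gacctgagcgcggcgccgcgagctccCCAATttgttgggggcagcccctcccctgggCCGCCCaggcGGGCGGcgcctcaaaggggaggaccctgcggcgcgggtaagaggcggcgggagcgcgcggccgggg

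This interval held 2 GC boxes (at least 1 in 37.9% of 20656 regions of that length) and 1 CCAAT box (21.4%). It held no AP-1 element (2.84%) or TATA box (5.66%). The other type IV chains, COL4A5 and COL4A6, had log2 FC of -0.16 and -0.43 in LE. COL7A1 was at 31.2, 40.9, 35.2 and 28.9 CPM in control LE and at 190.4, 76.1, 48.2 and 65.1 CPM in pregnant LE, without overlap (log2 FC 1.43, SE 0.38, edgeR FDR 0.0234). Its log2 FC was 0.88 without gilt 01 (FDR 0.0153). COL15A1 and COL18A1, collagens of the outer face of basement membranes, overlapped between groups in all 3 cell types.

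None of the fibrillar collagens passed a threshold. In LE, COL1A1 was at 3610, 4037, 3329 and 3932 CPM in the control and at 8229, 2187, 3505 and 3014 CPM in the pregnant group (log2 FC 0.17, SE 0.36). COL3A1 was at 3777 to 7055 CPM in control and 2228 to 5485 CPM in pregnant LE (log2 FC -0.48, SE 0.29). In S, COL1A1 was at 1157, 2088 and 2095 CPM in the control and at 20512, 1976 and 3700 CPM in the pregnant group, where gilt 01 stood apart. The log2 FC of COL1A1, COL1A2 and COL3A1 in S was 2.36, 2.03 and 1.83 (edgeR FDR 0.363, 0.365 and 0.435), and 0.66, 0.58 and 0.37 without gilt 01. In GE, COL1A1 was at 12655, 4702, 3112 and 774 CPM in the control and at 10429, 4610, 2790 and 3447 CPM in the pregnant group.

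In the remaining collagens, COL12A1, a fibril-associated collagen, was at 34.3, 44.9 and 27.6 CPM in control S and at 613, 80.7 and 92.4 CPM in pregnant S (log2 FC 2.93, SE 0.84, edgeR FDR 0.236), and its log2 FC was 1.27 without gilt 01. In LE, it was at 37.9, 91.9, 78.4 and 53.5 CPM in the control and at 708, 72.9, 176 and 182 CPM in the pregnant group (log2 FC 2.09, SE 0.60, edgeR FDR 0.0318; log2 FC 1.14 without gilt 01). COL6A3, a chain of the microfibrils of type VI collagen, was at 1325, 1639, 1460 and 1532 CPM in control LE and at 4248, 1932, 2431 and 1829 CPM in pregnant LE, without overlap (log2 FC 0.80, SE 0.27, edgeR FDR 0.0562). COL23A1, a transmembrane collagen, was lower in every pregnant LE library (34.1 to 56 CPM against 58.6 to 122 CPM) and higher in every pregnant S library (54.3 to 200.5 CPM against 38.3 to 44.7 CPM). The test of this difference between S and LE gave an edgeR FDR of 0.196.

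FBN1, encoding fibrillin-1 of the microfibrils, was increased in LE, from 257, 265, 230.4 and 374 CPM to 557, 471, 547 and 495 CPM (log2 FC 0.87, SE 0.18, edgeR FDR 0.008), and the groups did not overlap. The call was lost without gilt 01, 02, 03, 04, 05 or 06 (FDR 0.0122 to 0.03). FBN2 was at 28.6 to 49.99 CPM in control and 42.5 to 156 CPM in pregnant LE, and at 25.4 to 28.7 CPM in control and 58.2 to 166 CPM in pregnant S (log2 FC 1.14 and 1.88, edgeR FDR 0.0386 and 0.17; log2 FC 0.86 and 1.19 without gilt 01). LOXL2, a crosslinking enzyme, was separate in LE, at 53.7 to 70.7 CPM in control and 86.6 to 259 CPM in pregnant gilts (log2 FC 1.18, SE 0.32, edgeR FDR 0.0251). LOX was listed for GE and S only, with 0.385, 12.6 and 6.9 CPM in control S and 68.3, 6.62 and 26.6 CPM in pregnant S. Elastin (ELN) had 678 CPM in pregnant LE of gilt 01 and a maximum of 11 CPM elsewhere in LE, and its log2 FC of 4.22 (edgeR FDR 0.0793) was -0.64 without this gilt.

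Versican (VCAN), a large proteoglycan, lay just outside the threshold in LE. Its level was 94, 115, 139 and 194 CPM in the control and 377, 215, 275 and 345 CPM in the pregnant group, without overlap (log2 FC 1.15, SE 0.26, edgeR FDR 0.0104). It passed without gilt 03 or gilt 13. In S it was at 158, 71.8 and 148 CPM in the control and at 866, 257 and 223 CPM in the pregnant group (log2 FC 1.87, SE 0.62, edgeR FDR 0.293; log2 FC 0.91 without gilt 01). The small proteoglycans DCN and LUM had log2 FC of -0.67 and -0.64 in LE (edgeR FDR 0.0808 and 0.114). In S, DCN was at 219.6, 469 and 517 CPM in the control and at 2013, 564 and 661 CPM in the pregnant group. The log2 FC in S was 1.48 for DCN and 0.86 for LUM (edgeR FDR 0.376 and 0.589), and 0.59 and 0.13 without gilt 01. SPARC, a matricellular protein that binds collagen, was at 819.5 to 1252 CPM in control and 761 to 1489 CPM in pregnant LE (log2 FC 0.02, SE 0.25), and POSTN (periostin) at 11.9 to 56.7 and 38.5 to 82.9 CPM (log2 FC 0.77, SE 0.41).

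The cell types were then compared within gilts, using the mean of the differences in control and pregnant gilts and an FDR below 0.05. In S against LE (6 gilts), 21 of 50 matrix genes were lower (4.65% of all 10890 genes) and none was higher in S (4.67%), whereas 9.32% of all genes passed. By groups, these were 7 of 8 basement membrane collagens, 4 of 10 laminins (LAMA1, LAMA4, LAMB1, LAMC1), HSPG2, 4 of 6 elastic fibre and crosslinking genes, POSTN and SPARCL1 of 3 matricellular genes, and COL12A1, COL6A2 and BGN, but none of 7 fibrillar collagens. The median log2 difference of the 50 genes was -0.80, beside -0.03 for all genes. COL15A1, with the largest decrease, was at 97.5, 83.2 and 121 CPM in S of control gilts 02, 04 and 13 and at 318, 79.1 and 33.3 CPM in S of pregnant gilts 01, 05 and 14. In LE of the same gilts it was at 288, 236 and 247 CPM and at 587, 237 and 273 CPM. It was lower in S of all 6 gilts (log2 difference -1.58, SE 0.26, edgeR FDR 0.0121; 0.052 to 0.0542 without gilt 02 or 04). BGN (biglycan) was also lower in S of all 6 gilts (-1.18, SE 0.17, edgeR FDR 0.00789) and kept its call when any gilt was left out. POSTN (-1.42, SE 0.32), SPARCL1 (-1.29, SE 0.34) and COL7A1 (-1.27, SE 0.32) were lower in S of all 6 gilts as well, with edgeR FDR of 0.0326, 0.0494 and 0.0461. POSTN lost its call without gilt 02, 04, 05 or 14 (FDR 0.0554 to 0.132), and SPARCL1 and COL7A1 without gilt 02, 04, 05, 13 or 14 (FDR 0.0823 to 0.173 and 0.0791 to 0.152). COL1A1, COL1A2 and COL3A1 had differences of -0.45, -0.43 and -0.19 without passing. Blood endothelial markers moved with it, of which 4 of 9 were lower in S (CDH5, ESAM, KDR and PECAM1), with sums of 308 to 2200 CPM in S and 694 to 1811 CPM in LE, and so did 3 of 7 fibroblast markers. The log2 difference was also negative for all 7 listed smooth muscle and pericyte markers (median -1.05), of which CSPG4 passed. Their part in the decrease was not tested. Without the replicate block, that is, without the pairing of libraries by gilt, none of the 50 genes passed (0), and the median was -0.60. With the pairing, 35 passed without gilt 01, 10 without gilt 05, and 1 to 3 without gilt 02, 04, 13 or 14. The share of all genes that passed in these runs is not given, so these counts cannot be read as particular to matrix genes. Taken separately, 6 of 50 passed in pregnant gilts (12% of all genes), LAMB3, LAMA1, COL15A1, COL17A1, POSTN and COL18A1, and none in control gilts (0.0918%), where the edgeR test at a raw p below 0.05 found 34 (9.63% of all genes) and DESeq2 called 11 (1.5%).

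In GE against LE (8 gilts), 11 of 49 matrix genes passed, 2 higher and 9 lower in GE, against 30.9% of all 10851 genes (15.9% higher and 15% lower). LAMA3 was higher in GE of all 8 gilts (log2 difference 2.0, SE 0.33, edgeR FDR 0.00242), with a mean of 241 CPM in GE and 44.4 CPM in LE. COL17A1 was lower in GE of all 8 gilts (-2.0, SE 0.33, edgeR FDR 0.00245, means 43.5 and 133 CPM), and LAMB3 in 7 of 8 (-2.11, SE 0.47, edgeR FDR 0.00918). In control gilts LAMB3 was near the floor of 3 counts in both cell types (means of 0.127 CPM per kb in GE and 0.25 in LE). Its direction in those gilts rests on few reads. POSTN had the largest decrease (-2.28, SE 0.39, edgeR FDR 0.00256), with 1.35 to 16.5 CPM in GE and 11.9 to 82.9 CPM in LE. These 4 calls were kept when any gilt was left out. COL13A1, a transmembrane collagen, was lower in GE of all 8 gilts (-2.23, SE 0.60, edgeR FDR 0.0204; 0.0634 without gilt 04 and 0.0531 without gilt 05). COL15A1 (-1.66, SE 0.51, edgeR FDR 0.033) lost its call without gilt 01, 03, 04, 05 or 14 (FDR 0.0527 to 0.0933). VCAN, higher in GE of 7 of 8 gilts (1.01, SE 0.31, edgeR FDR 0.0343), lost it without gilt 01, 03, 04 or 05 (FDR 0.0711 to 0.0872). LOXL2, COL18A1, HSPG2 and LAMB1 were the other genes lower in GE (-1.30, -1.03, -0.90 and -0.86), and no fibrillar collagen passed (0 of 6). COL18A1 lost its call without gilt 04, 05 or 14, LOXL2 without gilt 01, 03, 04, 05, 06 or 14, and HSPG2 and LAMB1 when any gilt but 02 was left out. Of blood endothelial markers, 2 of 9 were lower in GE (ENG and KDR), with sums of 74.6 to 1452 CPM in GE. Of epithelial markers, 5 of 10 were lower and 1 was higher in GE (median log2 difference -0.62), with sums of 833 to 3473 CPM in GE, and of 10 fibroblast markers SNAI2 was lower. Their part was not tested. Without the replicate block, 6 of 49 genes passed. With the pairing and without gilt 02, 24 of 49 genes passed (22 lower in GE), and 4 to 6 without gilt 01, 03, 04, 05 or 14. For these runs and the run without the block, the share of all genes that passed is not given. Their counts cannot be read as particular to matrix genes. In control gilts alone, LAMA3 and COL17A1 passed (2 of 49, against 7.49% of all genes), and in pregnant gilts alone LAMB3, POSTN, LAMA3 and COL17A1 (4 of 49, against 24.4%).

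**Figure D4:**
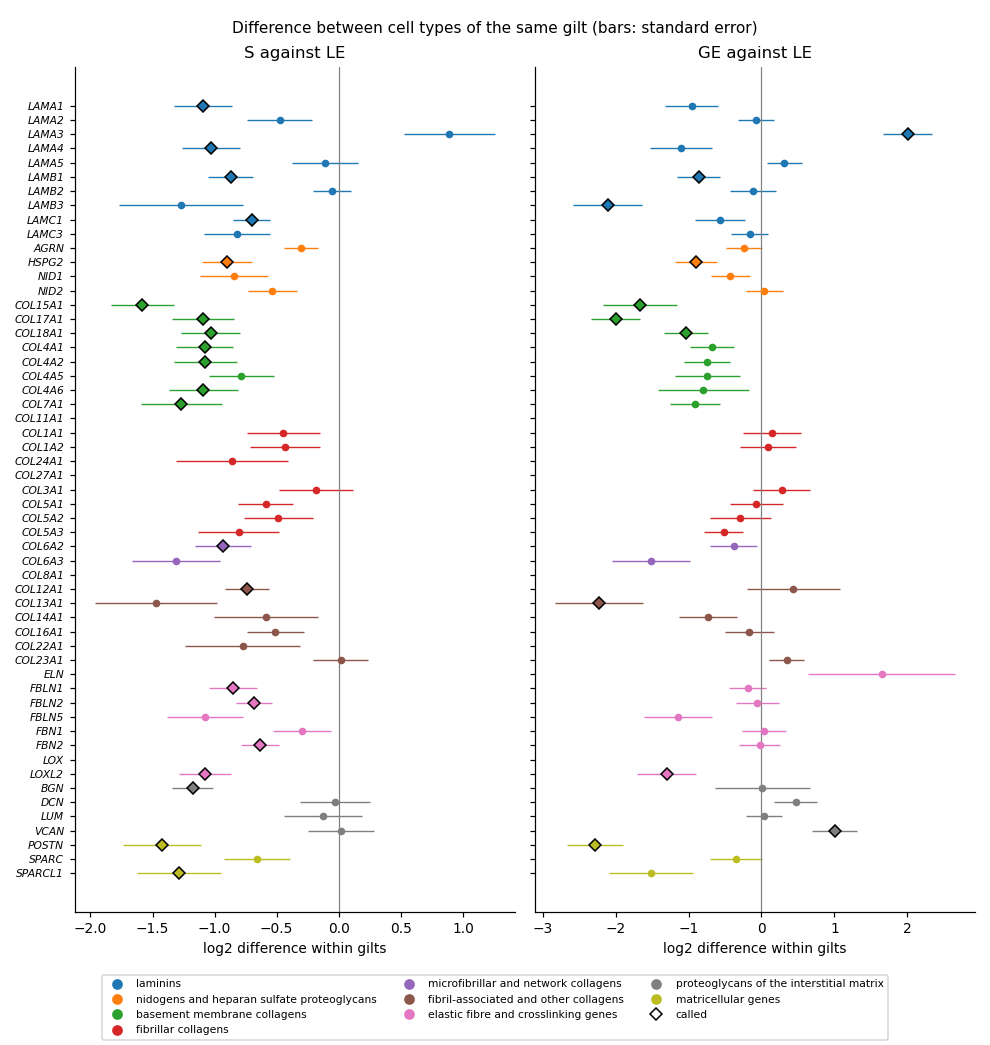
log2 difference between cell types of the same gilt (x axis) for each matrix gene, S against LE left and GE against LE right, with standard errors as bars and genes with an FDR below 0.05 as diamonds. In S against LE, 47 of 50 genes lie left of 0, whereas LAMA3 and VCAN are the 2 diamonds right of 0 in GE against LE.

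In S against GE (6 gilts), none of 49 matrix genes passed, and none of all 11124 genes (0%). At a raw p below 0.05 the edgeR test found 3 (COL17A1 higher, VCAN and LAMA3 lower in S), against 12.1% of all genes, and DESeq2 called 2 (2.94%).

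Whether the difference between pregnant and control gilts depended on the cell type was tested as an interaction. No matrix gene passed between LE and GE (0 of 49, 1.41% of all genes), LE and S (0 of 50, 0.00918%) or GE and S (0 of 49, 0%). At a raw p below 0.05, the edgeR test found 1, 13 and 5 matrix genes, against 15.6, 13.3 and 9.26% of all genes, and DESeq2 called 0, 1 (COL23A1) and 0, against 5.77, 2.56 and 1.24%. For LAMB3 and LAMA3 the differences in GE against LE were -2.09 (SE 1.14, edgeR FDR 0.433) and -0.95 (SE 0.66, edgeR FDR 0.562).

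**Figure D5:**
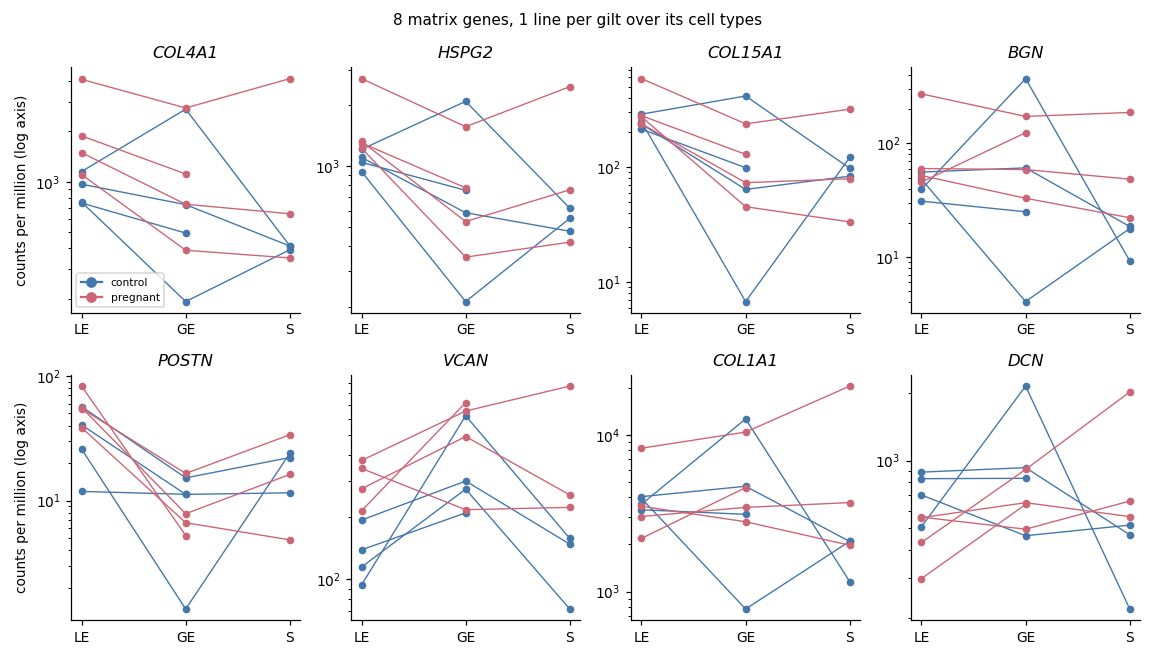
Levels (CPM, log axis) of 8 matrix genes in LE, GE and S, with 1 line per gilt, blue for control and red for pregnant. The lines of POSTN fall from LE to GE in all 8 gilts, and a pregnant gilt (01) is highest in S in all 8 panels.

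Genes that act on the same proteins were compared from 4 lists, with counts to be read against the shares of all genes that passed (10% in LE, 0.694% in GE and 1.47% in S). Of 16 genes for folding and modification of collagen listed in LE, 1 increased and 1 decreased. PLOD2, a lysyl hydroxylase, was at 17.8 to 30.8 CPM in control and 41 to 146 CPM in pregnant LE (log2 FC 1.69, SE 0.36, edgeR FDR 0.00827). COLGALT2, a collagen galactosyltransferase, was at 26.5 to 102 and 4.88 to 15.3 CPM (log2 FC -2.55, SE 0.51, edgeR FDR 0.00627). Of 12 matrix receptors in LE, ITGA3 increased and ITGA6 decreased, both alpha subunits of integrins that bind laminin. ITGA3 was at 63.8 to 107 CPM in control and 189.9 to 319 CPM in pregnant LE (log2 FC 1.41, SE 0.22, edgeR FDR 0.00163), and ITGA6 at 819 to 986 and 227 to 571 CPM (log2 FC -1.40, SE 0.28, edgeR FDR 0.00657). ITGB4, which pairs with ITGA6 in hemidesmosomes, was at 352 to 614 CPM in control and 213 to 340.4 CPM in pregnant LE without passing (log2 FC -0.83, SE 0.21, edgeR FDR 0.02). No gene for the processing of procollagen passed in any cell type (0 of 9 in LE, 0 of 10 in GE and 0 of 8 in S). Of 28 further matrix proteins in LE, SMOC1, a calcium binding protein of basement membranes, passed, with 252 to 357 CPM in control and 63.1 to 159 CPM in pregnant gilts (log2 FC -1.54, SE 0.28, edgeR FDR 0.00375). SMOC1 was also lower in pregnant S (log2 FC -2.15, SE 0.45, edgeR FDR 0.132), and P3H2, a prolyl hydroxylase, was higher there (13.5 to 21.9 CPM in control and 41.5 to 74.4 CPM in pregnant gilts, log2 FC 1.71, SE 0.34, edgeR FDR 0.124). In GE, NTN4, a netrin of basement membranes, was the only gene of the 4 lists to pass (40.5 to 74.4 CPM in control and 16.6 to 39.2 CPM in pregnant gilts, log2 FC -1.36, SE 0.32, edgeR FDR 0.3).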

How the data were processed

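RNA-seq read counts of 22 LCM libraries from 8 gilts were used. The authors trimmed adapters and the first 5 bases of each read, aligned the reads to the NCBI build Sscrofa11.1 with Hisat2, collapsed PCR duplicates using the random bases added with the adapter, and deposited raw counts per gene in a table for each cell type, keeping genes above a CPM minimum. Which program counted the reads, whether it was strand-specific and how high the minimum was are not given in the sources used here. Of 56 listed genes that match the symbols, 1 is not reported here and enters no count or median of the matrix genes, though it stayed in the fits. Genes not listed for a cell type were not analysed there. Symbols, coordinates and sequences were taken from the RefSeq annotation of Sscrofa11.1.

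Counts were tested over all listed genes with the quasi-likelihood test of edgeR 4.0.16 (R 4.3.3) with TMM normalisation and Benjamini-Hochberg FDR. Pregnant and control gilts were compared separately in each cell type, by the thresholds of the study, an FDR below 0.01 in LE and, for GE and S, a raw p below 0.0021. Cell types were compared in pairs with the gilt as a block, with the difference fitted separately in control and pregnant gilts (FDR below 0.05). The fit was tested on simulated counts with an equal spread for all genes and no differences between gilts. That does not cover libraries that stand apart from their group. Levels are CPM on 1 scale, with TMM factors over the 22 libraries and 10643 genes listed for all 3 cell types, and levels per kb use the union of exons. The floor of 3 counts is 0.694 to 3.57 CPM and covers counting error only.

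Same-numbered libraries come from the same gilt, as the sample labels give it. Deviations of such libraries from the group means had a median correlation of 0.255 between GE and LE (over 0.1 in 6 of 8 gilts), 0.461 between S and GE (5 of 6) and 0.315 between S and LE (6 of 6).

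Named genes were the matrix genes called for pregnancy, the 5 called with the largest increase and decrease in each pair of cell types, a list of reference genes (COL1A1, COL1A2, COL3A1, COL4A1, COL4A2, LAMA3, LAMB3, LAMA5, LAMB1, LAMC1, NID1, HSPG2, DCN, LUM, SPARC, POSTN, LOX), and genes with an interaction. Other named matrix genes were chosen after their values were seen. The members and lists were chosen with earlier results of these data known. Alternatives were DESeq2 1.42.0 (size factors and Wald test), library size alone, filterByExpr, a minimum of 10 counts, the likelihood ratio test, other thresholds, no replicate block, a joint fit, the 6 gilts with an S library, and leaving out each gilt.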

Additional observations from a re-analysis of the deposited data

Results flagged for a closer look

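Of 102 groups of 4 libraries, 9 had a highest or lowest library that stood apart from the others by Dixon's test. The groups are named genes read from the same libraries and are not independent, so this count cannot be set against chance. In control GE, gilt 02 stood apart for BGN (371 CPM, next 60.9), LAMA5 (443, next 133), LAMC1 (867, next 186) and LOX (117, next 21.6). In pregnant LE, gilt 01 stood apart for BGN (273 CPM, next 60.1), COL15A1 (587, next 279) and HSPG2 (2705, next 1321), and in pregnant GE for COL7A1 (109 CPM, next 29.7) and SPARCL1 (583, next 246). In control GE of gilt 02, pregnant LE of gilt 01 and pregnant GE of gilt 01, the smooth muscle, fibroblast and blood endothelial markers also had the highest sums of their group. The part of such cells in these levels was not tested.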

How the results depend on the processing

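Among the genes named by the rules above, no called result reversed its direction under any alternative run. The direction of the other called genes was not compared over these runs. In LE, 4 matrix genes were called for pregnancy (10% of all genes) and 13 with an FDR below 0.05 (22.4%). DESeq2 called 11 (19.1%) and the likelihood ratio test 12 (18.2%). There were 2 calls with a minimum of 10 counts, 2 with the 6 gilts that had an S library, and 1 to 8 when a gilt was left out. In GE, the 3 calls (0.694% of all genes) were 0 with an FDR below 0.05 (0.0171%), 1 with those 6 gilts, and 2 to 3 when a gilt was left out. In S, the 1 call (1.47% of all genes) was 0 with an FDR below 0.05 (0.251%) and 5 with DESeq2 (4.44%). There were 2 calls with library size alone, 0 with a minimum of 10 counts, 5 with the likelihood ratio test, and 0 to 2 when a gilt was left out. In S against LE, the 21 calls (9.32% of all genes) were 1 with an FDR below 0.01 and 0 with no replicate block. They were 0 with the joint fit of 22 libraries, and 1 to 35 when a gilt was left out. In GE against LE, the 11 calls (30.9% of all genes) were 4 with an FDR below 0.01 and 19 with DESeq2. They were 6 with no replicate block, and 4 to 24 when a gilt was left out. In S against GE, 2 matrix genes were called with DESeq2 (2.94% of all genes). Interactions gave 1 call with DESeq2 between LE and S, and 0 to 1 (LE and GE) or 0 to 2 (LE and S) when a gilt was left out. The cause of these changes was not tested. Where no share of all genes stands beside a count, the count cannot be read as particular to matrix genes. For single genes, 32 calls in S against LE, 15 in GE against LE, 17 in LE, 7 in GE and 4 in S were lost, and 11 in LE and 4 in S were gained, counted over named genes and alternatives. Levels near 3 counts, such as LAMB3 in control gilts, are limited by depth.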
